A study of Mus musculus with 2 samples.

Results

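Glucose enters a cell through transporters of the Slc2a family and is taken down to pyruvate and lactate by glycolysis, and several steps of that route can be carried by more than 1 isoform. Here 10 genes of the route were followed by their symbols, 10 of the 52550 gene identifiers counted: the transporters Slc2a1 and Slc2a3, the hexokinases Hk1 and Hk2, the phosphofructokinases Pfkp, Pfkm and Pfkl, the aldolase Aldoa, and the lactate dehydrogenase subunits Ldha and Ldhb. They were measured by Drop-seq, which pairs a cell with a barcoded bead in a droplet and counts each captured mRNA molecule once by its unique molecular identifier (UMI), read near the 3′ end. The tissue was the posterior second heart field (pSHF), a pool of mesodermal progenitors behind the heart, and the heart tube (HT) that these progenitors extend, dissected from WT CD1 mice at E10.0. Both libraries, replicates 1 and 2, belong to this 1 group and each pooled about 80 embryos, so comparisons were made between cell classes within libraries, and the spread is that between the 2 pools, which were processed on different days.

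In outline, GLUT1 (Slc2a1) and GLUT3 (Slc2a3) let glucose across the membrane, hexokinase traps it as glucose 6-phosphate, and phosphofructokinase commits it to glycolysis. Hexokinase 1 is the widespread form and hexokinase 2 the form known from muscle and fat, while the phosphofructokinase genes are named for platelet (Pfkp), muscle (Pfkm) and liver (Pfkl). Aldolase A splits fructose 1,6-bisphosphate, and lactate dehydrogenase, a tetramer of A and B subunits, interconverts pyruvate and lactate. The early embryonic heart is known to draw on glycolysis before mitochondria take over later in development, and the transporter and enzyme genes include textbook targets of the hypoxia-inducible factor HIF-1.

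After filtering, 3882 cells of replicate 1 and 4717 cells of replicate 2 were kept. Their median depth was 1380.5 and 1500.0 UMIs, and 82 barcodes occurred in both libraries. Leiden clustering gave 19 clusters, of which 5 stayed unnamed and the others, named from marker genes, formed 13 classes holding 61.2% and 59.0% of the cells. The unnamed rest included 1 cluster of 1078 and 1345 cells with medians of only 736 and 820 UMIs. The cardiomyocyte-like class held 190 and 240 cells, with summed levels of the 10 cardiomyocyte markers at 22588 and 32783 UMIs per 1000000 UMIs (CPM), against 245 and 351 CPM in SHF/foregut mesenchyme-like cells. The class it is set against held 477 and 494 cells, with 6 of 8 SHF progenitor markers and 5 of 6 foregut mesenchyme markers raised. Its top 10 genes by fold hold 4 of the foregut mesenchyme list (Barx1, Nkx6-1, Foxl1 and Foxf1) and 3 of the SHF progenitor list (Foxf1, Aldh1a2 and Osr1). The cells of these lists could not be told apart, and the class is called SHF/foregut mesenchyme-like. Epicardial markers summed to 1073 and 945 CPM in cardiomyocyte-like cells (8 of 8 present), against 308 and 349 CPM in SHF/foregut mesenchyme-like cells (7 of 8, Aldh1a1 at 0). Foregut mesenchyme markers summed to 18.4 and 18.8 CPM in cardiomyocyte-like cells (Nkx6-1 at 0), against 449 and 411 CPM in SHF/foregut mesenchyme-like cells. SHF progenitor markers differed less, at 890 and 828 CPM in cardiomyocyte-like and 1202 and 1353 CPM in SHF/foregut mesenchyme-like cells (8 of 8 present in both). Median depths were 2113 and 1948 UMIs in cardiomyocyte-like cells and 2272 and 1957 UMIs in SHF/foregut mesenchyme-like cells, and the part of these marker differences in the results was not tested. None of the 10 genes, nor any other tested gene, took part in the clustering.

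Cardiomyocyte-like cells carried more mRNA of several genes of the first steps of glucose use than SHF/foregut mesenchyme-like cells, and differed in the isoforms carried. The hexokinase and phosphofructokinase sums were higher in the cluster led by Nppa, 1 of the 2 clusters of the class. In the cluster led by Hcn4 they were 83.5 ± 13.9 and 266 ± 37.1 CPM (SD, n = 2), and neither transporter passed. SHF/foregut mesenchyme-like cells had 82.2 ± 1.11 and 259 ± 9.4 CPM of these families. In cardiomyocyte-like cells 6 of the 10 genes were higher and 0 lower at an adjusted p under 0.05, where 14.3% of the 5407 genes tested were higher and 13.4% lower (edgeR quasi-likelihood test, Benjamini-Hochberg adjusted). The higher genes were Pfkp, Hk1, Slc2a3, Slc2a1, Aldoa and Ldha, while Hk2, Pfkm, Pfkl and Ldhb did not pass. At an unadjusted p under 0.05 there were still 6 higher and 0 lower, and DESeq2's Wald test called 5 higher and 0 lower. The median log2 fold change of the 10 genes was 0.61, against -0.03 over all genes tested. Within both enzyme families of the early steps, 1 isoform was higher (Hk1, Pfkp) beside partners that did not pass the test (Hk2, Pfkl, Pfkm).

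**Figure D1:**
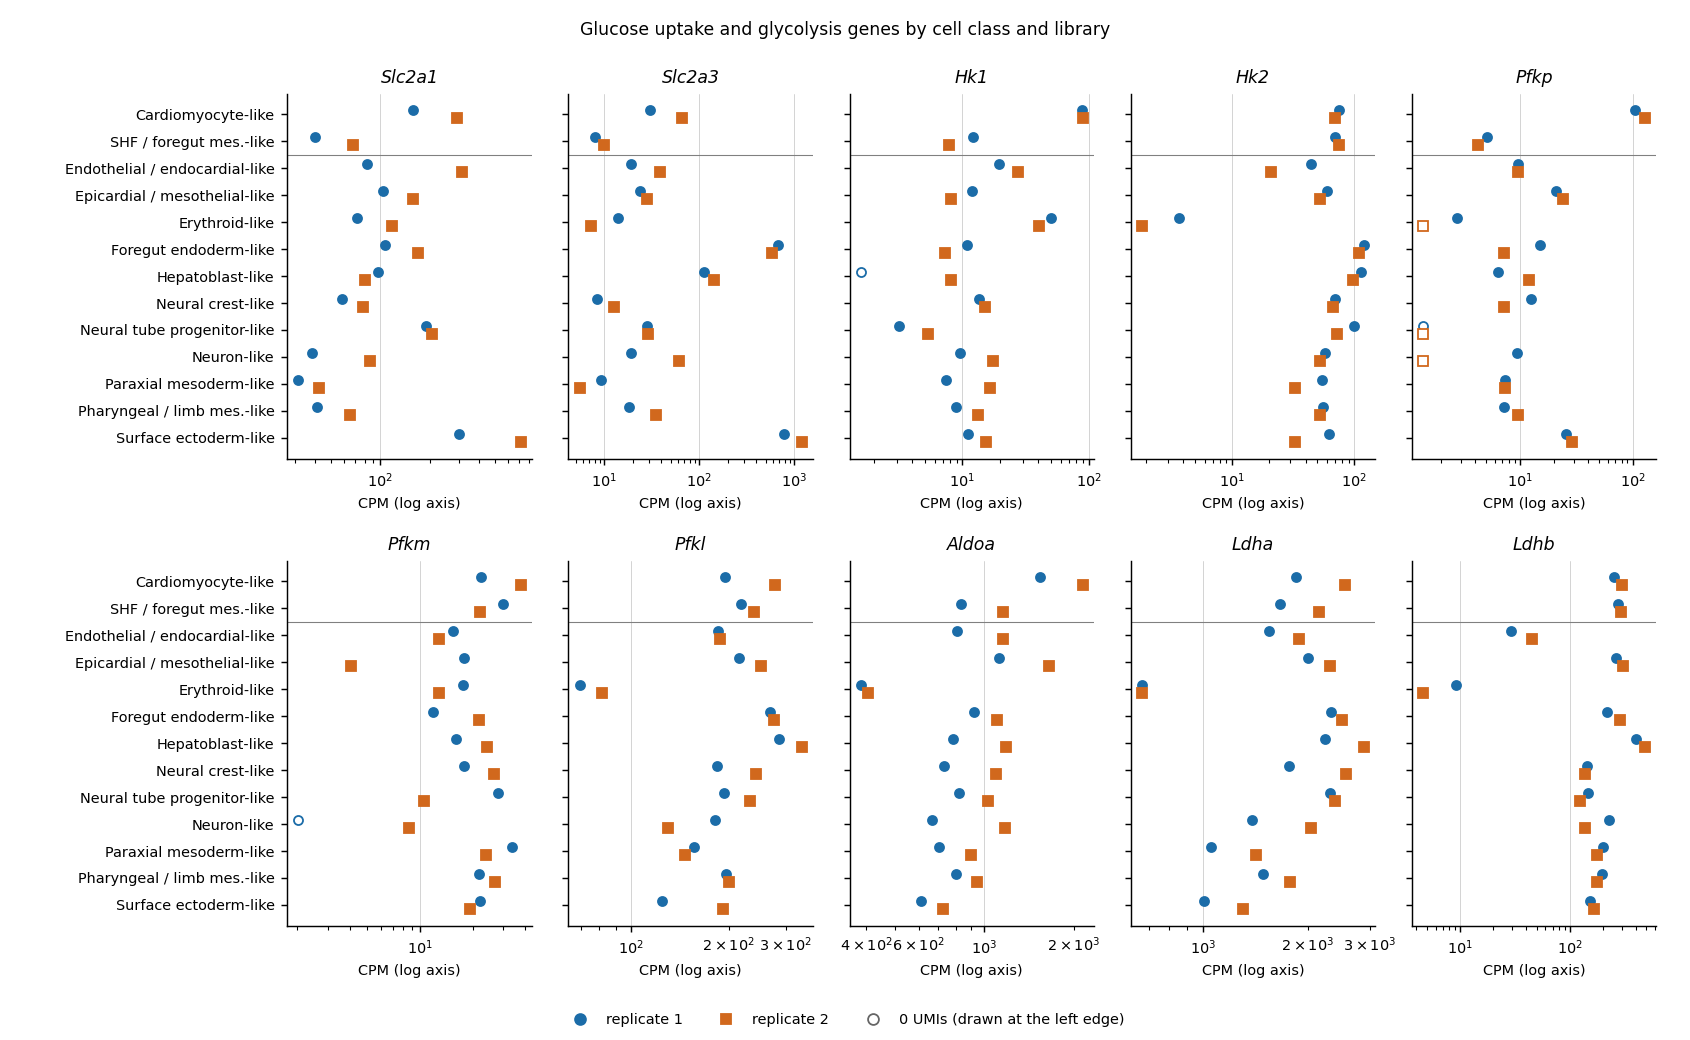
Levels of the 10 genes in the 13 cell classes, in CPM on a log axis, with 1 point for each library (replicates 1 and 2) and open points at the left edge for 0 UMIs. Hk1 and Pfkp were highest in cardiomyocyte-like cells, with both libraries above every other class, Slc2a1 and Slc2a3 had their highest mean in surface ectoderm-like cells, and Ldhb ran from 6.92 CPM in erythroid-like to 446 CPM in hepatoblast-like cells.

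Promoter sequence is shown for 4 of the 6 higher genes, Slc2a1, Hk1, Pfkp and Ldha, of which Ldha passed by a small margin. Core letters that HIF-1 is known to bind are marked in it. The windows run from 250 bases before to 50 bases after an annotated start (RefSeq, GRCm38.p6). Capitals mark the core letters ACGTG and GCGTG and their reverse complements CACGT and CACGC, searched on both strands, where CACGTG (an E-box) is counted in both directions. Slc2a1 lies at chr4:119108495-119108794 on the plus strand and Pfkp at chr13:6648722-6649021 on the minus strand. Hk1 has an upstream start at chr10:62379859-62380158 and a start within the gene at chr10:62340372-62340671, both on the minus strand, and the first Ldha window is chr7:46845554-46845853 on the plus strand.
Slc2a1: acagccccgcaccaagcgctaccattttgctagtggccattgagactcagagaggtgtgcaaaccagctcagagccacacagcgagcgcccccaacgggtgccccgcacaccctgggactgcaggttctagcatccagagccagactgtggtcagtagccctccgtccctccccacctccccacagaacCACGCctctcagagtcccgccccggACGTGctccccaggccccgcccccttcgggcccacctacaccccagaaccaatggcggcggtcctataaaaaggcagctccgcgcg
Hk1, start 1: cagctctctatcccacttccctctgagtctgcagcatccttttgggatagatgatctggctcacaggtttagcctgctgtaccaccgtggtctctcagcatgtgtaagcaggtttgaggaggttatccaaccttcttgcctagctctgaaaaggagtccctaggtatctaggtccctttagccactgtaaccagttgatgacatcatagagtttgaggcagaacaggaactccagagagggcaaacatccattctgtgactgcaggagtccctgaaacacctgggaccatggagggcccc
Hk1, start 2: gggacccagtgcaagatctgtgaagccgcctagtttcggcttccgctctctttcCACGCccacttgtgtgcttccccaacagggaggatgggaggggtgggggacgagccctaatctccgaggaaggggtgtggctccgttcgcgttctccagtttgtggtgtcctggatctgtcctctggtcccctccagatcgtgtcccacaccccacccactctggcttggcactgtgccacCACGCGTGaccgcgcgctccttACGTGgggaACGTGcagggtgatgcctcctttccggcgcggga
Pfkp: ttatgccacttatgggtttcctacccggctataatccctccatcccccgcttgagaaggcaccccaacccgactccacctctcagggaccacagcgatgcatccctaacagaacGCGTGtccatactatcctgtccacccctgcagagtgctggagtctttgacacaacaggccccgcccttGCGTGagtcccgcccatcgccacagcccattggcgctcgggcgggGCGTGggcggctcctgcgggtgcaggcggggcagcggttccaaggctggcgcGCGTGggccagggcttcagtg
Ldha, start 1: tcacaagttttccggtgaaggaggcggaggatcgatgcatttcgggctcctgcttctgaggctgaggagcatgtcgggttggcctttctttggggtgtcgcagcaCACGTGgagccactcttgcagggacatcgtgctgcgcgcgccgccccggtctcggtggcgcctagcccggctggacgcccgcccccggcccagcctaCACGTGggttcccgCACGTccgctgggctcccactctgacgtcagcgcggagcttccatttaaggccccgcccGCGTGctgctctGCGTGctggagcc
The Slc2a1 window holds 2 cores, Pfkp 4 and the first Ldha window 7, with CACGTG at 2 places. Of the Hk1 windows, start 1 holds 0 cores and start 2 holds 5. Across 32851 RefSeq promoters of the same length, 43.8% hold at least 1 core, 8.93% hold 3 or more and 7.15% hold CACGTG. RefSeq windows were matched for 9 of the 10 genes (not Slc2a3), 16 windows in all, and 13 of them hold a core. The windows of Pfkm starts 2 and 3 overlap and share the same CACGC, and those of Aldoa starts 2 and 3 share the same CACGT. The 13 windows therefore do not all hold separate sites, and their share was not tested against the 43.8%. Windows of Aldoa, a higher gene not shown, hold 0, 1 and 1 cores, where the core of starts 2 and 3 is the same site. Hk2, Pfkm, Pfkl and Ldhb, which did not pass the test above, also have windows with cores. The first Pfkm window holds 3 cores and CACGTG. These matches describe letters only, and UMIs read near the 3′ end do not tell which start a transcript used.

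Slc2a1, the basal glucose transporter, was present at 158 and 291 CPM in cardiomyocyte-like cells in replicates 1 and 2, against 40.1 and 67.9 CPM in SHF/foregut mesenchyme-like cells. Both cardiomyocyte-like values lay above both SHF/foregut mesenchyme-like values, although replicate 2 was the higher library in both classes. The log2 fold change was 2.11 (SE 0.19), a 4.32-fold difference with an adjusted p of 8.04e-16 in edgeR's quasi-likelihood test. Slc2a3, a high-affinity transporter, had 30.2 and 66.4 CPM in cardiomyocyte-like cells and 8.02 and 10.0 CPM in SHF/foregut mesenchyme-like cells. The groups again did not overlap, and the log2 fold change was 2.47 (SE 0.35, adjusted p 1.72e-08 in edgeR). Together the transporters summed to 272 ± 119.7 CPM in cardiomyocyte-like cells and 63.0 ± 21.1 CPM in SHF/foregut mesenchyme-like cells (SD, n = 2).

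Among the 13 classes, surface ectoderm-like cells had the highest mean of both transporters. Each class was also contrasted with the mean log level of the other 12. In surface ectoderm-like cells 3 of the 10 genes were higher and 3 lower, against 9.41% and 4.25% of all genes tested, and in foregut endoderm-like cells 5 were higher and 0 lower, against 13.9% and 3.27% (0 lower also at an unadjusted p under 0.05 and in DESeq2's Wald test). For surface ectoderm-like cells DESeq2's Wald test called 3 higher and 2 lower, and the lower call of Pfkl was lost in 8 of 10 alternatives. Surface ectoderm-like cells had 776 and 1202 CPM of Slc2a3, and foregut endoderm-like cells 673 and 590 CPM. Both libraries of each lay above every other class, with hepatoblast-like cells next at 113 and 142 CPM. The log2 fold change over the other classes was 4.84 (SE 0.12, adjusted p 6.56e-50 in edgeR) in surface ectoderm-like and 4.26 (SE 0.12, adjusted p 1.78e-47) in foregut endoderm-like cells, and both calls held in all 10 alternatives computed.

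Slc2a1 was also highest in surface ectoderm-like cells, at 300 and 714 CPM, with a log2 fold change of 2.25 over the other classes (edgeR adjusted p 3.15e-25). With only cells of at least 800 genes it was 0.48, with an adjusted p of 0.181. In cardiomyocyte-like cells, second in the order, the log2 fold change over the other classes was 1.17 (adjusted p 2.15e-11), held in all 10 alternatives. Endothelial or endocardial-like cells had 83.3 and 314 CPM of Slc2a1, so the libraries differed widely. Their call (log2 fold change 0.89, edgeR adjusted p 2.27e-06) rested on replicate 2: the value was 1.29 in replicate 2 alone and 0.03 in replicate 1 alone. Cardiomyocyte-like, endothelial or endocardial-like and neural tube progenitor-like cells could not be ordered beyond the spread between libraries.

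Paraxial mesoderm-like cells had the lowest mean of both transporters. They averaged 36.9 ± 7.46 CPM of Slc2a1 and 7.41 ± 2.69 CPM of Slc2a3 (SD, n = 2), with log2 fold changes of -1.81 and -2.74 against the other classes (edgeR adjusted p 1.13e-08 and 6.01e-07). The Slc2a3 value was -2.09 in replicate 1 alone and -3.34 in replicate 2 alone. SHF/foregut mesenchyme-like cells were lower too, by -1.12 for Slc2a1 and -2.34 for Slc2a3 (edgeR adjusted p 5.04e-08 and 1.37e-10). In SHF/foregut mesenchyme-like cells 2 of the 10 genes were higher and 2 lower (17.5% and 2.5% of all genes tested), and in paraxial mesoderm-like cells 0 were higher and 5 lower (6.88% and 1.74%), with 1 higher at an unadjusted p under 0.05 and 0 in DESeq2's Wald test. That test called 3 lower in paraxial mesoderm-like cells, where the lower calls of Aldoa and Pfkl were lost. The full span between highest and lowest class mean was 13.7-fold for Slc2a1 and 133-fold for Slc2a3, the widest of the 9 genes for which a ratio could be given. The 133-fold span rests on the low value of paraxial mesoderm-like cells, near their limit at 3 counts per library, 5.59 and 5.51 CPM.

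Hk1 had 88.0 and 90.2 CPM in cardiomyocyte-like cells, against 12.0 and 7.87 CPM in SHF/foregut mesenchyme-like cells. Hk2 had 74.9 and 70.2 CPM in cardiomyocyte-like cells and 69.3 and 75.1 CPM in SHF/foregut mesenchyme-like cells. The Hk1 values stood far apart between the classes in both libraries, whereas the Hk2 values interleaved. The log2 fold change of Hk1 was 3.17 (SE 0.31), a 9.03-fold difference with an edgeR adjusted p of 1.59e-14, and that of Hk2 was 0.08 (SE 0.20, adjusted p 0.810). Hexokinase mRNA as a sum was 162 ± 1.76 CPM in cardiomyocyte-like cells and 82.2 ± 1.11 CPM in SHF/foregut mesenchyme-like cells (SD, n = 2). Within the cardiomyocyte-like class it was 260.3 ± 22.1 CPM in the cluster led by Nppa and 83.5 ± 13.9 CPM in the cluster led by Hcn4 (SD, n = 2).

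Erythroid-like cells shared the Hk1 side of this pair. They had 49.99 and 40.4 CPM of Hk1, second of the 13 classes, and 3.70 and 1.84 CPM of Hk2, the lowest of all. Against the other classes, Hk1 was higher by 2.79 (SE 0.25, edgeR adjusted p 6.62e-17) and Hk2 was lower by -3.53 (SE 0.39, adjusted p 9.18e-13) on the log2 scale, and both calls held in all 10 alternatives. The Hk1 value was 3.40 in replicate 1 alone, and the Hk2 value rests on 4 and 2 UMIs. In erythroid-like cells 2 of the 10 genes were higher and 6 lower (24.4% and 26.2% of all genes tested), in a class where haemoglobin mRNA took 38.7% and 44.0% of all UMIs, against 0.105% to 0.274% in the other 12 classes. The part of haemoglobin in these per-UMI levels was not tested.

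Hk2 was highest in foregut endoderm-like cells at 119.9 and 109 CPM and in hepatoblast-like cells at 113 and 97.2 CPM. Their ranges overlapped, although foregut endoderm-like cells had the higher value within each library. Both were higher than the other classes, by 1.24 and 1.07 on the log2 scale (edgeR adjusted p 4.14e-10 and 0.000437), each lost only after thinning cells to 1000 UMIs. Hk1 was near its floor in hepatoblast-like cells, with 0 and 2 UMIs, and in neural tube progenitor-like cells, with 1 and 2 UMIs. In hepatoblast-like cells 5 of the 10 genes were higher and 0 lower (7.32% and 4.35% of all genes tested), with 1 lower at an unadjusted p under 0.05 and 0 in DESeq2's Wald test. In neural tube progenitor-like cells 3 were higher and 1 lower (7.51% and 4.7%), and DESeq2's Wald test called 1 higher and 1 lower. The Hk2 call there was lost in 7 of 10 alternatives, and those of Slc2a1, Ldha and Pfkp in 2 of 10 each. Between highest and lowest class mean lay 22.0-fold for Hk1 and 41.3-fold for Hk2, which was 3.49-fold without erythroid-like cells.

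Pfkp had the largest fold change of the 10 genes. It had 105 and 129 CPM in cardiomyocyte-like cells (80 and 103 UMIs), against 5.16 and 4.29 CPM in SHF/foregut mesenchyme-like cells (9 and 6 UMIs). The log2 fold change was 4.64 (SE 0.35), a 24.9-fold difference with an edgeR adjusted p of 2.08e-19. Pfkl, the most abundant of the family in UMIs, had 194 and 278 CPM in cardiomyocyte-like cells and 218 and 240 CPM in SHF/foregut mesenchyme-like cells. Pfkm had 22.3 and 37.6 CPM in cardiomyocyte-like cells and 29.8 and 22.2 CPM in SHF/foregut mesenchyme-like cells. For both of these the classes overlapped, with log2 fold changes of 0.11 (SE 0.14, edgeR adjusted p 0.609) and 0.26 (SE 0.33, adjusted p 0.626). Pfkm is the isoform known from adult muscle and heart.

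Across the 13 classes Pfkp was highest in cardiomyocyte-like cells in both libraries, followed by surface ectoderm-like cells at 25.6 and 28.8 CPM and epicardial or mesothelial-like cells at 20.9 and 24.3 CPM. In cardiomyocyte-like cells 9 of the 10 genes were higher than in the other classes and 0 lower (20.3% and 7.36% of all genes tested), with Pfkp at a log2 fold change of 4.32 (SE 0.24, edgeR adjusted p 2.46e-27) and at 5.22 in replicate 2 alone. None was lower at an unadjusted p under 0.05 or in DESeq2's Wald test, which called 8 higher. The Pfkp call in surface ectoderm-like cells (7 and 15 UMIs) was lost in 3 of 10 alternatives and that in epicardial or mesothelial-like cells (7 and 6 UMIs) in 6 of 10, with log2 fold changes of 1.86 and 1.57 that were 2.66 and 2.41 in replicate 2 alone. Epicardial or mesothelial-like cells also carried 2576 and 3695 CPM of the cardiomyocyte markers, with Nppa and Nkx2-5 at 0, and the part of these transcripts in its Pfkp level was not tested. Neural tube progenitor-like cells had 0 UMIs of Pfkp in both libraries, which allows up to 9.34 and 7.96 CPM at 3 counts per library, with exact 95% upper limits of 11.5 and 9.79 CPM.

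Pfkl was highest in hepatoblast-like cells, at 286 and 336 CPM with both libraries above foregut endoderm-like cells at 269 and 275 CPM. Hepatoblasts give rise to liver, for which this isoform is named. The log2 fold change over the other classes was 0.63 (SE 0.14, edgeR adjusted p 0.000676) and held in all 10 alternatives. Erythroid-like cells had the lowest CPM of Pfkl, 69.4 and 81.7, in UMIs of which haemoglobin took the share given above. On the TMM-scaled log2 fold change against the other classes Pfkl was -0.53 in erythroid-like cells (edgeR adjusted p 0.000780) and -0.63 in neuron-like cells, where it did not pass (adjusted p 0.0996). Pfkm spanned 4.34 to 29.96 CPM among class means, and the values of each class overlapped those of its neighbours in that order.

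Aldoa had 1541 and 2149 CPM in cardiomyocyte-like cells, against 836 and 1155 CPM in SHF/foregut mesenchyme-like cells. Replicate 2 was higher in all 13 classes, but within each library cardiomyocyte-like cells stood clearly above, by a log2 fold change of 0.96 (SE 0.10), 1.94-fold, with an edgeR adjusted p of 1.13e-13. Cardiomyocyte-like cells had the highest class mean, 1845 ± 430 CPM, followed by epicardial or mesothelial-like cells at 1387 ± 376 CPM, and erythroid-like cells had the lowest, 394 ± 16.5 CPM (SD, n = 2). Within each library cardiomyocyte-like cells lay above epicardial or mesothelial-like cells, which had 1121 and 1653 CPM, and this difference was not tested. The CPM of erythroid-like cells are shares of UMIs that include haemoglobin, and on the TMM-scaled log2 fold change against the other classes Aldoa was lower in surface ectoderm-like (-0.67) than in erythroid-like cells (-0.38).

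The lactate dehydrogenase genes differed little between cardiomyocyte-like and SHF/foregut mesenchyme-like cells. Ldha had 1854 and 2546 CPM in cardiomyocyte-like cells and 1667 and 2150 CPM in SHF/foregut mesenchyme-like cells, and Ldhb had 251 and 298 CPM in cardiomyocyte-like cells and 277 and 293 CPM in SHF/foregut mesenchyme-like cells. The values of both genes overlapped between classes, with replicate 2 the higher library in each. Ldha passed by a small margin, at a log2 fold change of 0.27 (SE 0.09) and an edgeR adjusted p of 0.0228, and Ldhb did not (0.01, SE 0.13, adjusted p 0.961). The Ldha call was lost after thinning to 1000 UMIs (0.18, adjusted p 0.318), with DESeq2 size factors (0.20, adjusted p 0.157), in DESeq2's Wald test (0.20, adjusted p 0.353) and without the library block (0.28, adjusted p 0.534).

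Ldhb was lowest in blood and vessel classes. Erythroid-like cells had 9.26 and 4.59 CPM of Ldhb and endothelial or endocardial-like cells 29.1 and 45.1 CPM, both below every other class in both libraries. Their log2 fold changes against the other classes were -3.80 (SE 0.26, edgeR adjusted p 9.04e-23) and -2.13 (SE 0.20, adjusted p 8.63e-15). In endothelial or endocardial-like cells 1 of the 10 genes was higher and 2 lower (15.5% and 6.97% of all genes tested). DESeq2's Wald test called 1 higher and 1 lower there, and the lower call of Hk2 was lost in 6 of 10 alternatives. At the other end, hepatoblast-like cells had 405 and 486 CPM, above every other class in both libraries, at 1.64 over the other classes (SE 0.14, adjusted p 2.45e-17). Ldhb was also higher in cardiomyocyte-like, SHF/foregut mesenchyme-like and foregut endoderm-like cells than in the other classes (log2 fold changes 1.05, 1.04 and 0.79), and these 6 calls held in every alternative computed. Among class means in CPM, Ldha spanned 3.82-fold, from 670 CPM in erythroid-like to 2562 CPM in hepatoblast-like cells, and Ldhb 64.4-fold. Without erythroid-like cells the spans were 2.22-fold for Ldha and 12.0-fold for Ldhb. On the TMM-scaled log2 fold change against the other classes Ldha was lowest in surface ectoderm-like cells (-0.79), followed by paraxial mesoderm-like (-0.65) and erythroid-like cells (-0.54).

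In all, the 13 classes gave 37 higher and 24 lower calls among 130 tests of the 10 genes, and 22 of these 61 calls held in every alternative computed. The shares over all genes tested are given with each class. Without the library block there were 18 higher and 13 lower calls, and after thinning to 1000 UMIs 18 and 15 among 108 tests. In the remaining classes, epicardial or mesothelial-like cells had 4 higher and 0 lower (8.67% and 2.96% of all genes tested; 4 and 0 at an unadjusted p under 0.05, 2 and 0 in DESeq2's Wald test), neural crest-like cells 2 and 2 (20.2% and 3.61%), pharyngeal or limb mesenchyme-like cells 1 and 2 (13.9% and 1.22%), and neuron-like cells 0 and 1 (4.83% and 5.59%; 0 and 5 at an unadjusted p under 0.05, 0 and 4 in DESeq2's Wald test). In epicardial or mesothelial-like cells the higher genes beside Pfkp were Ldhb (log2 fold change 0.93), Aldoa (0.51) and Ldha (0.24). In neural crest-like cells Hk2 (0.57) and Ldha (0.37) were higher and Slc2a1 (-0.71) and Slc2a3 (4.01-fold, 8.38 and 12.7 CPM) lower, and in pharyngeal or limb mesenchyme-like cells Ldhb (0.36) was higher and Slc2a1 (-1.15) and Slc2a3 (-0.64) lower. Ldha was the gene called in neuron-like cells (-0.31). The Slc2a3 and Ldhb calls in pharyngeal or limb mesenchyme-like cells were lost in 7 and 6 of 9 alternatives. Those of Ldha in epicardial or mesothelial-like cells and of Hk2 in neural crest-like cells were lost in 6 and 5 of 10. The other calls of these 4 classes, Pfkp aside, were lost in 0 to 3. In replicates 1 and 2 alone, Ldha was 0.18 and 0.55 in neural crest-like, -0.45 and -0.19 in neuron-like and 0.33 and 0.15 in epicardial or mesothelial-like cells, Hk2 was 0.33 and 0.79 in neural crest-like cells, and Slc2a3 was -0.96 and -0.38 in pharyngeal or limb mesenchyme-like cells.

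**Figure D2:**
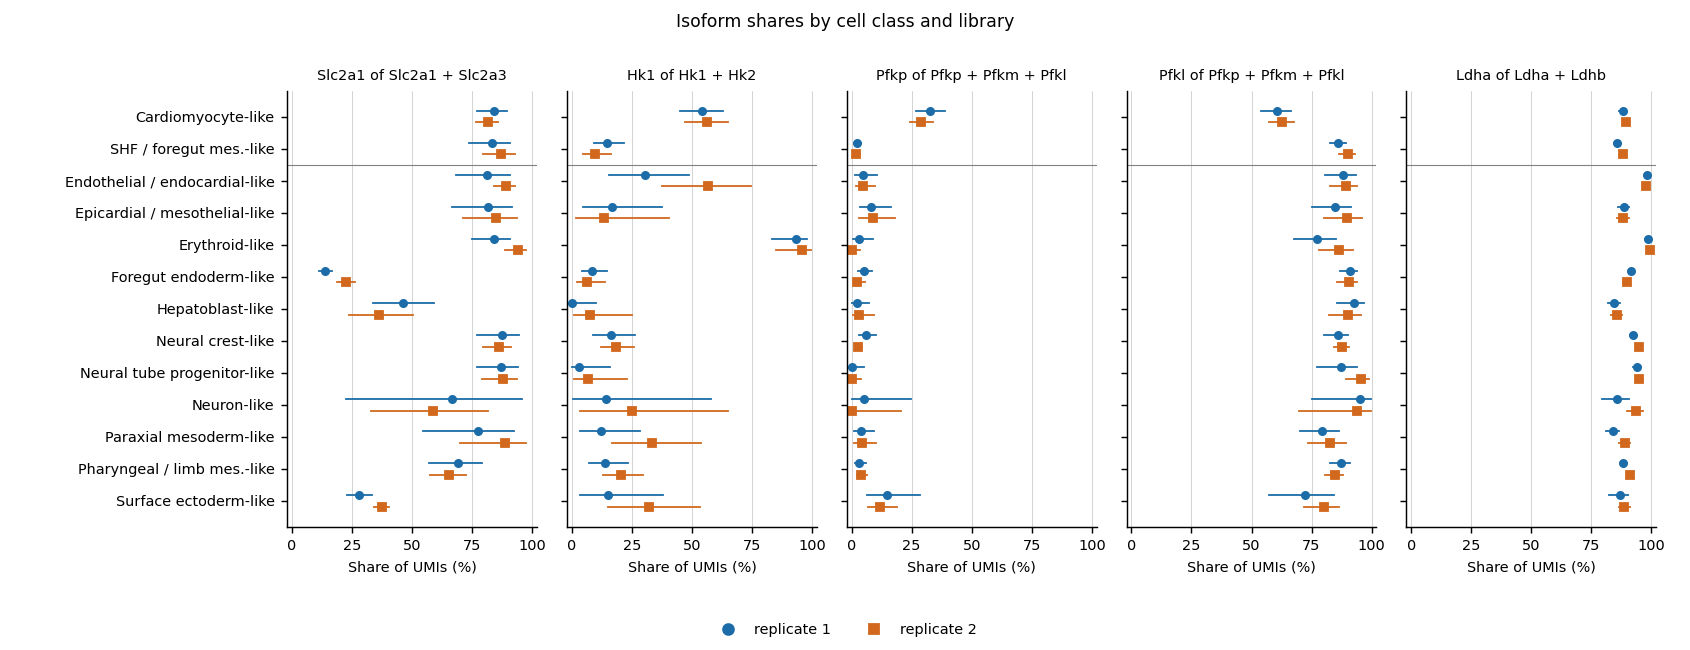
Share of each isoform in the UMIs of its family, in percent, by class and library (points for replicates 1 and 2, bars for exact 95% binomial intervals that cover counting error only). The Hk1 share was highest in erythroid-like cells, at 93.1% and 95.7%, and in replicate 2 it was about the same in endothelial or endocardial-like (56.7%) and cardiomyocyte-like cells (56.2%). The Pfkp share was highest in cardiomyocyte-like cells, and the Slc2a1 share was lowest in foregut endoderm-like and surface ectoderm-like cells.

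Shares within a family compare UMIs, 1 per captured molecule, so no scaling by transcript length was made, and depth cancels within a library. Hk1 made up 54.0% (exact 95% binomial interval 44.9 to 63.0) and 56.2% (47.2 to 65.0) of hexokinase UMIs in cardiomyocyte-like cells, against 14.8% (9.39 to 21.7) and 9.48% (4.83 to 16.3) in SHF/foregut mesenchyme-like cells. SHF/foregut mesenchyme-like cells held mostly Hk2, while the cardiomyocyte-like share lay between those of its clusters, 65.0% and 61.6% in the cluster led by Nppa and 34.1% and 37.9% in the cluster led by Hcn4. The difference was 43.0 ± 5.32 percentage points (SD, n = 2). In erythroid-like cells Hk1 made up 93.1% and 95.7%, and in hepatoblast-like cells 0% (0 of 35 UMIs, upper bound 10.0%) and 7.69%. Shares are given with intervals and were not tested.

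Pfkp made up 32.7% and 29.0% of phosphofructokinase UMIs in cardiomyocyte-like cells, against 2.04% and 1.61% in SHF/foregut mesenchyme-like cells, a difference of 29.0 ± 2.27 points. Pfkl made up 60.4% and 62.5% in cardiomyocyte-like cells and 86.2% and 90.1% in SHF/foregut mesenchyme-like cells, a difference of -26.6 ± 1.24 points (SD, n = 2). For Hk1, Pfkp and Pfkl the intervals of the classes did not overlap in either library. The Slc2a1 share of the transporters was 83.9% and 81.4% in cardiomyocyte-like cells and 83.3% and 87.2% in SHF/foregut mesenchyme-like cells, with overlapping intervals and a difference of -2.58 ± 4.48 points. The Ldha share was 88.1% and 89.5% in cardiomyocyte-like cells and 85.8% and 88.0% in SHF/foregut mesenchyme-like cells, a difference of 1.92 ± 0.573 points, with intervals that overlapped in at least 1 library.

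Other classes differed by value in their transporter and lactate dehydrogenase shares. Slc2a1 made up only 13.7% and 22.3% of transporter UMIs in foregut endoderm-like cells and 27.9% and 37.3% in surface ectoderm-like cells, where Slc2a3 led. Ldha made up 98.6% and 99.3% of lactate dehydrogenase UMIs in erythroid-like cells and 98.2% and 97.7% in endothelial or endocardial-like cells. The A subunit is the one known to favour the making of lactate.

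The cardiomyocyte-like class was made of 2 clusters, 1 led by Nppa (74 and 114 cells, all 10 cardiomyocyte markers raised), a natriuretic peptide gene of working myocardium, and 1 led by Hcn4 (116 and 126 cells, 7 of 10 raised), which codes for the pacemaker channel. Among the top 10 genes by fold were 3 of the cardiomyocyte markers in the Nppa-led cluster and no cardiomyocyte marker in the Hcn4-led cluster. The clusters were contrasted with each other after their values had been seen. Pfkp had 231 and 222 CPM in Nppa-led cells, against 27.6 and 33.0 CPM in Hcn4-led cells. Hk1 had 179 and 151 CPM in Nppa-led cells and 31.8 and 27.9 CPM in Hcn4-led cells. For Slc2a1 the Nppa-led cells had 314 and 462 CPM and the Hcn4-led cells 61.5 and 114 CPM. In each of these 3 genes every Nppa-led value exceeded every Hcn4-led value.

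Of the 10 genes, 8 were higher in Nppa-led than in Hcn4-led cells and 0 lower, where 6.23% of 5360 genes tested were higher and 5.22% lower (edgeR), and at an unadjusted p under 0.05 there were 10 higher and 0 lower. The log2 fold changes were 3.06 for Pfkp (SE 0.33, adjusted p 3.58e-12), 2.59 for Hk1 (SE 0.33, adjusted p 2.33e-09) and 2.31 for Slc2a1 (SE 0.23, adjusted p 1.65e-13). Slc2a3 followed at 2.21 (adjusted p 3.50e-05), but it was 1.43 in replicate 1 alone. The other calls were smaller: Hk2 0.98, Ldhb 0.85, Aldoa 0.84 and Ldha 0.63. Pfkl (0.47, adjusted p 0.0956) and Pfkm (1.01, adjusted p 0.187) did not pass. The median of the 10 genes was 0.99, against -0.05 over all genes tested.

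**Figure D3:**
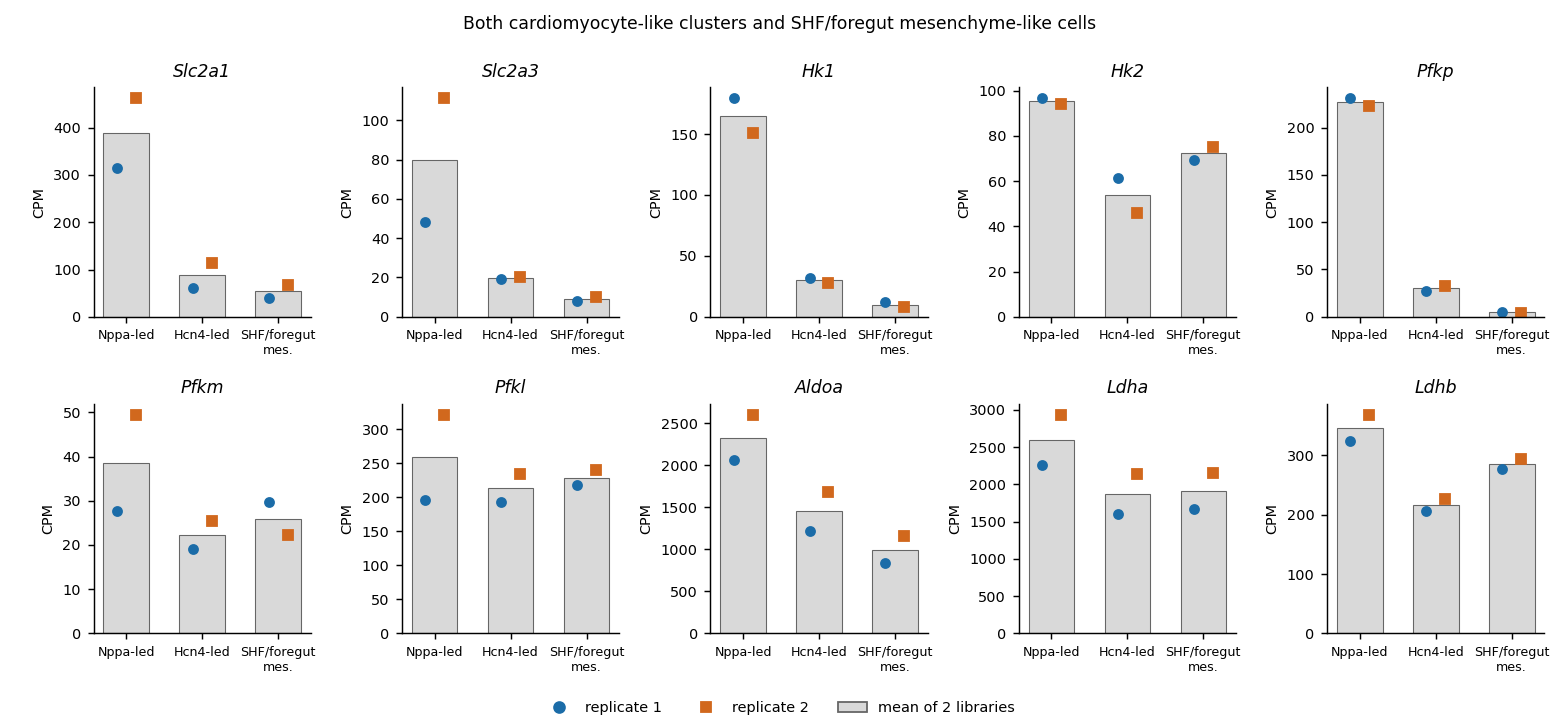
Levels of the 10 genes in the Nppa-led and the Hcn4-led cardiomyocyte-like clusters and in SHF/foregut mesenchyme-like cells, in CPM on linear axes that start at 0, with 1 point for each library and bars for the mean of both. For Pfkp, Hk1, Slc2a1 and Slc2a3 the Nppa-led points lie above both other groups.

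Set against SHF/foregut mesenchyme-like cells, which both contrasts share, Nppa-led cells had 6 of the 10 genes higher and 0 lower (13.3% and 18.2% of all genes tested), and Hcn4-led cells had 3 higher and 1 lower (7.15% and 10.1%). In Nppa-led cells the log2 fold change was 5.58 for Pfkp, a 48.0-fold difference, 4.05 for Hk1 and 2.90 for Slc2a1 (edgeR adjusted p 1.83e-24, 3.11e-19 and 2.93e-22). In Hcn4-led cells Pfkp was higher by 2.52 (adjusted p 6.17e-05), Hk1 by 1.46 (adjusted p 0.00953) and Aldoa by 0.45 (adjusted p 0.000408), and Ldhb was lower by -0.50 (adjusted p 0.0130). Slc2a1 at 0.59 (SE 0.27, adjusted p 0.117) and Slc2a3 at 1.03 (SE 0.52, adjusted p 0.181) did not pass in Hcn4-led cells. At an unadjusted p under 0.05, Nppa-led cells had 8 higher and 0 lower, and Hcn4-led cells 4 higher and 2 lower.

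Other marker lists moved with these clusters. Cardiomyocyte markers summed to 46155 and 52839 CPM in Nppa-led cells and to 8096 and 12173 CPM in Hcn4-led cells. Markers of the epicardium summed to 521 and 573 CPM in Nppa-led cells (7 of 8 present, Lhx9 at 0) and to 1413 and 1326 CPM in Hcn4-led cells. SHF progenitor markers summed to 638 and 662 CPM in Nppa-led cells (7 of 8 present, Foxf1 at 0) and to 1046 and 998 CPM in Hcn4-led cells. Median depths were 1946.5 and 2256 UMIs in Nppa-led cells and 2364.5 and 1684 UMIs in Hcn4-led cells, in opposite order in the libraries. The part of these in the isoform differences was not tested. In the phosphofructokinase family, Pfkp reached 50.8% and 37.5% of UMIs in Nppa-led cells, against 11.5% and 11.3% in Hcn4-led cells, with no overlap of intervals in either library. The intervals of the Hk1 shares of these clusters, given above, overlapped in at least 1 library.

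To see where between these classes the genes rose, both classes were ordered by a score, the projection between the centroids of the 2 classes, and summed in 5 bins per library. The bins had mean scores of -0.003, 0.43, 0.84, 1.24 and 1.87, and cardiomyocyte-like cells made up 1.14% of the first, 90.6% of the second and 100% of the other three. Pfkp had 5.26 and 4.39 CPM in the first bin, 16.9 and 0 in the second, 29.4 and 51.3 in the third, 108 and 95.6 in the fourth and 259 and 254 in the fifth. Hk1 had 10.5 and 8.05 CPM in the first bin, 38.1 and 10.2 in the second, 33.7 and 44.9 in the third, 119 and 71.7 in the fourth and 184 and 164 in the fifth. Both genes kept climbing among cells that were all cardiomyocyte-like, and the middle bins rest on 2 to 16 UMIs per library where not 0.

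Slc2a1 had 39.7 and 67.3 CPM in the first bin, 42.3 and 46.0 in the second, 79.9 and 250.2 in the third, 43.1 and 167 in the fourth and 390 and 511 in the fifth. Its libraries parted in the third bin and the fourth, where replicate 2 was the higher. Hk2 had 68.9 and 74.7 CPM in the first bin, 42.3 and 51.1 in the second, 75.7 and 32.1 in the third, 75.5 and 71.7 in the fourth and 109.5 and 103 in the fifth. A linear trend over bins was higher for 5 of the 9 genes tested and lower for 0, where 12.9% of 3019 genes tested were higher and 22.1% lower (edgeR), and 6 were higher and 0 lower at an unadjusted p under 0.05. Per bin the log2 slope was 1.45 for Pfkp (SE 0.09, adjusted p 1.93e-09), 1.05 for Hk1 (SE 0.08, adjusted p 2.49e-08), 0.77 for Slc2a3, 0.76 for Slc2a1 and 0.31 for Aldoa. Hk2, Pfkl, Ldha and Ldhb did not pass, with slopes of 0.13, 0.02, 0.11 and 0.09, and Pfkm was too low to be tested. The score was built from the same cells as the classes, so it orders cells and is not a measure of time.

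**Figure D4:**
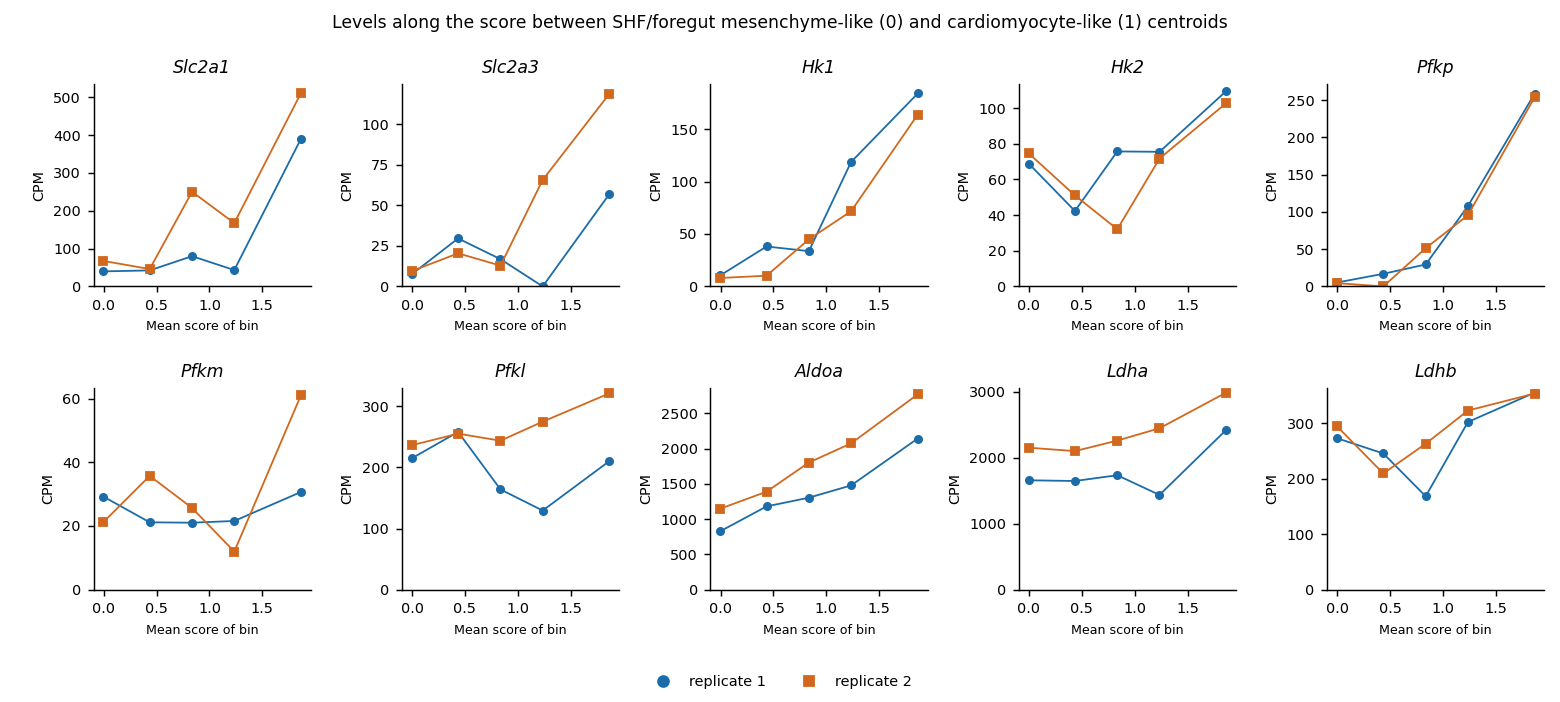
Levels of the genes in 5 bins of the score from SHF/foregut mesenchyme-like to cardiomyocyte-like cells, in CPM on linear axes against the mean score of the bin, with 1 line for each library. Pfkp reaches 259 and 254 CPM in the last bin after 16.9 and 0 CPM in the second, and the libraries part for Pfkl, at 129 and 275 CPM in the fourth bin.

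The rest of the route was read from 6 lists of related genes. In cardiomyocyte-like over SHF/foregut mesenchyme-like cells, 14.3% of all genes tested were higher and 13.4% lower. Of 22 other genes of glucose transport and glycolysis, 12 were tested, and 4 were higher and 1 lower (edgeR). Their median log2 fold change was 0.34, against -0.03 over all genes. One of the 12, Pklr, had 0 UMIs in both classes, and the median of the other 11 was 0.45. Without Gapdh, Pgam1 and Pgk1 as well, 8 were left, with the same counts of 4 and 1 and a median of 0.88. They were led by muscle forms. Pgam2, the muscle phosphoglycerate mutase, had 254 and 506 UMIs in cardiomyocyte-like cells and 3 and 2 in SHF/foregut mesenchyme-like cells, a ratio of CPM of 306 (exact 95% interval 131 to 946, counting error only; edgeR adjusted p 6.14e-40). Eno3, the muscle enolase, had 383 and 471 CPM in cardiomyocyte-like cells and 168 and 172 CPM in SHF/foregut mesenchyme-like cells (log2 fold change 1.39, adjusted p 1.08e-13). Gpi1, which turns glucose 6-phosphate into fructose 6-phosphate, had 362 and 565 CPM in cardiomyocyte-like cells and 186 and 253 CPM in SHF/foregut mesenchyme-like cells (1.15, adjusted p 1.50e-12). Slc2a4, the insulin-responsive transporter of adult heart, had only 4 and 3 UMIs in cardiomyocyte-like cells and 10 and 9 in SHF/foregut mesenchyme-like cells. These were out of 761417 and 798208 UMIs in cardiomyocyte-like and 1745149 and 1398544 UMIs in SHF/foregut mesenchyme-like cells. The raw counts therefore do not show a lower level in cardiomyocyte-like cells, and Slc2a4 was not among the genes tested.

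Of the 6 lists, glycogen genes had the highest median, with 8 of 10 higher and 0 lower and a median log2 fold change of 1.83. The shares over all genes tested were 14.3% higher and 13.4% lower. Gyg, glycogenin, which primes glycogen, had 1059.9 and 1300.4 CPM in cardiomyocyte-like cells and 104 and 116 CPM in SHF/foregut mesenchyme-like cells (log2 fold change 3.48, SE 0.13, edgeR adjusted p 1.35e-38). Pgm2 had 202 and 187 CPM in cardiomyocyte-like cells and 41.3 and 42.2 CPM in SHF/foregut mesenchyme-like cells (2.28, adjusted p 4.76e-18). Pygm, the muscle glycogen phosphorylase, had 15 and 48 UMIs in cardiomyocyte-like cells and 0 and 1 in SHF/foregut mesenchyme-like cells, a ratio of 127 (exact 95% interval 22.0 to 5094). In each of the 3 genes the classes were apart in both libraries.

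Of 17 genes of lactate export and pyruvate entry, 13 were tested and 8 were higher and 0 lower (median 0.80). For this list and those that follow, the shares over all genes tested were again 14.3% higher and 13.4% lower. Bsg, the chaperone of the lactate carriers, rose by 0.85 (edgeR adjusted p 1.50e-10), Mpc2, a subunit of the mitochondrial pyruvate carrier, by 1.11 (adjusted p 3.38e-08) and the lactate exporter Slc16a3 by 0.91 (adjusted p 4.77e-08). Among 10 glycolytic regulators, 9 were tested, and Hif1a (0.86), Myc (0.94) and Txnip (1.05) were higher and 0 lower (median 0.72), with adjusted p values of 1.08e-05, 0.0178 and 0.0408. Of 12 hypoxia-response genes, 11 were tested, with 3 higher, 1 lower and a median of 0.13, among them Adm (adrenomedullin, 3.68, but 5.23 in replicate 1 alone and 2.70 in replicate 2 alone), Bnip3 (0.74) and Mif (-0.43). Of 7 pentose phosphate genes, all tested, 1 was higher and 2 lower (median -0.23): Taldo1 (0.44), Tkt (-0.76) and G6pdx (-1.02), the first enzyme of that shunt.

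Between the 2 cardiomyocyte-like clusters the same lists were read in Nppa-led over Hcn4-led cells (edgeR). There 6.23% of 5360 genes tested were higher and 5.22% lower. Other glycolysis gave 5 higher and 0 lower of 12 tested (4 and 0 without Gapdh, Pgam1 and Pgk1, of which Pgk1 was called). Lactate and pyruvate gave 6 and 0 of 12, and glycogen 6 and 0 of 10. Regulators gave 1 and 1 of 9, hypoxia response 1 and 1 of 11 and pentose phosphate 0 and 1 of 7. Myc was lower in Nppa-led cells, with 1 and 5 UMIs against 24 and 27 UMIs in Hcn4-led cells (log2 fold change -2.61, adjusted p 0.000451, and -3.71 in replicate 1 alone). Adm had 93.1 and 84.0 CPM in Nppa-led cells and 155 and 130 CPM in Hcn4-led cells and did not pass (-0.57, adjusted p 0.316). Pgam2 had 748 and 1144 CPM in Nppa-led cells and 78.5 and 109 CPM in Hcn4-led cells (3.49, adjusted p 4.04e-28).

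**Figure D5:**
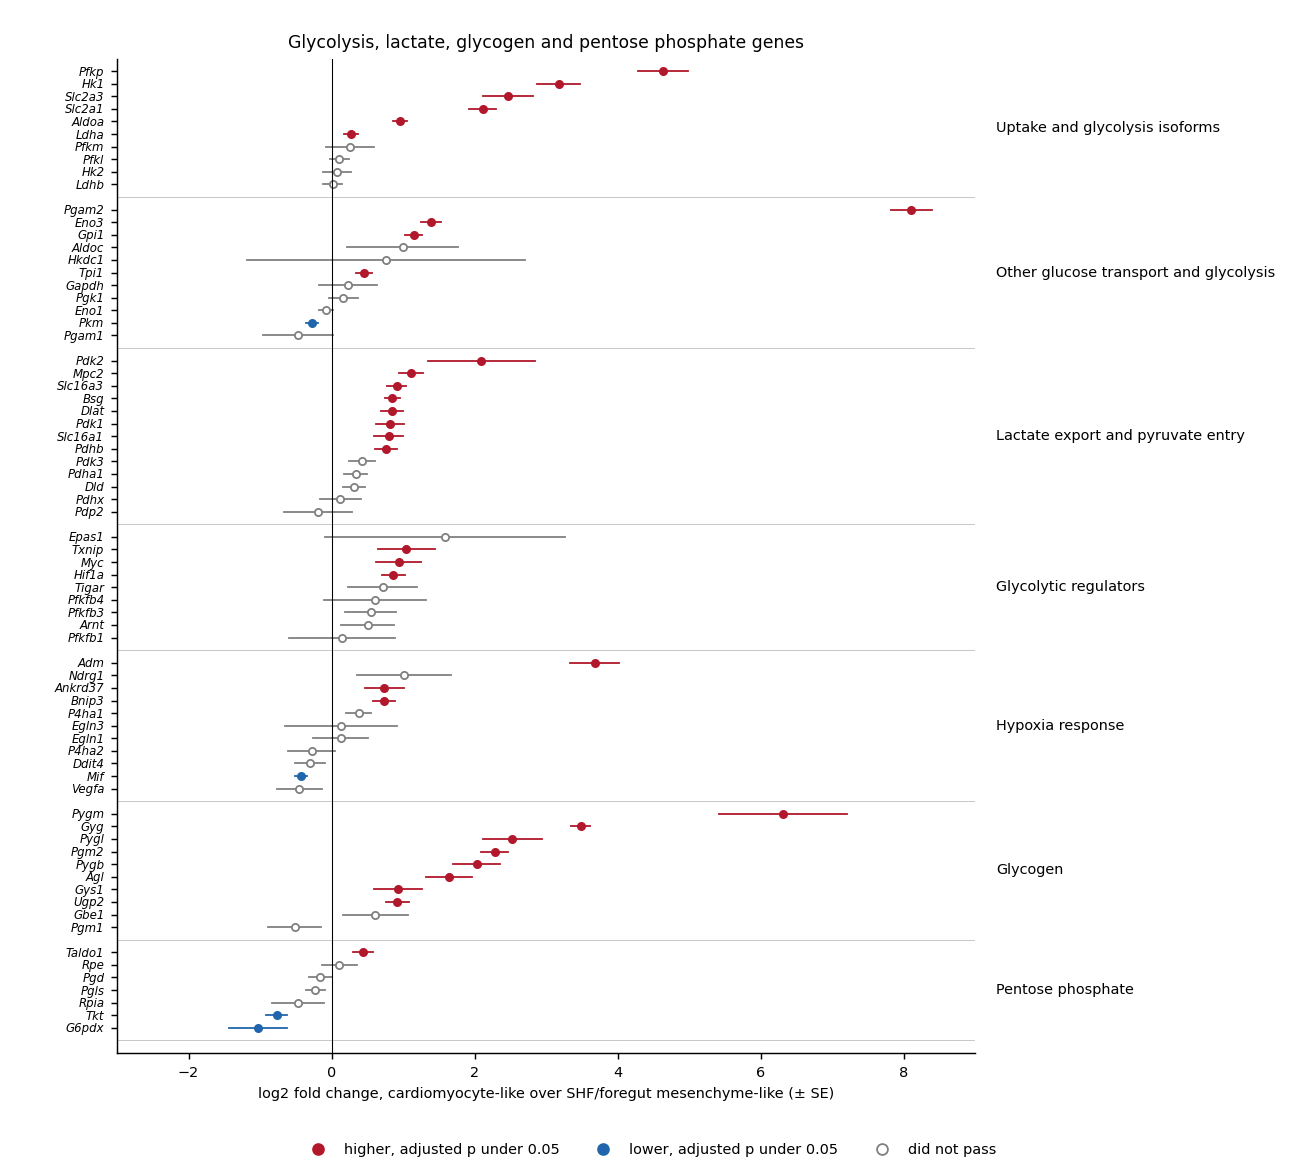
Log2 fold changes of cardiomyocyte-like over SHF/foregut mesenchyme-like cells for the 10 genes and the 6 lists of related genes, with 1 point per tested gene, bars for 1 SE and filled points for an adjusted p under 0.05. The glycogen list has the highest median, 1.83, and a gene with 0 UMIs in both classes (Pklr) is left out.

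Some features of the counting bear on single genes. Pfkp overlaps Pitrm1 on the other strand, and whether the counting used strand is not given in the sources used here. Pitrm1 had 88.0 and 37.6 CPM in cardiomyocyte-like cells and 116 and 104 CPM in SHF/foregut mesenchyme-like cells, and its part in the Pfkp level was not tested. Pfkm overlaps Senp1, at 69.6 and 63.9 CPM in cardiomyocyte-like cells and 100 and 101 CPM in SHF/foregut mesenchyme-like cells, so the Pfkm level is uncertain. Hk1 overlaps Hk1os, which had 59 UMIs in all classes. Gapdh, Pgam1 and Pgk1, which have near-identical copies elsewhere in the genome, had only 305, 223 and 1004 UMIs in all classes, and their values are uncertain. In 117 and 333 barcodes of 10 to 200 UMIs, taken as a view of free RNA, there were 8713 and 55494 UMIs in all. Of these, 0 were of Pfkp, 3 of Hk1, 3 of Hk2, 11 of Slc2a1 (all in replicate 2), 48 of Aldoa and 110 of Ldha. In pools of this size 3 counts stand for 344 and 54.1 CPM, so these low counts do not show that free RNA was low. The part of free RNA in the levels was not tested. Replicate 2 exceeded replicate 1 for Slc2a1 in 12 of 13 classes, for Ldha in 12 and for Hk2 in 1.

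Genes outside these lists with the most similar pattern were sought over the 26 sums of 13 classes and 2 libraries for each gene that spanned at least 4-fold, as a description across classes that share libraries. Slc2a3 went with the epithelial genes Cldn4 (Pearson r 0.93), Cdh1 (0.92) and Ap1m2 (0.89). Hk1 was most like Cox6c (0.85), Josd2 (0.84) and Atp5b (0.84), of which the first and the last code for parts of the respiratory chain and ATP synthase. Pfkp was most like the small heat shock protein genes Hspb2 (0.82) and Hspb1 (0.80), and Dstn (0.80). Hk2 and Ldhb both had Scd2 as their nearest gene (0.90 and 0.92). Aldoa was most like Tusc3 (0.84), Pfkl most like Tceal8 (0.82), Pfkm most like Pdcd5-ps (0.77) and Slc2a1 most like Fhl1 (0.71).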

How the data were processed

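The deposited files hold UMI counts per gene and cell barcode for each of the 2 Drop-seq libraries. Per the submitters' processing notes mm10 and Scanpy were used, while neither an aligner nor the use of strand is stated there, in the labels or in the headers. The 10 genes and the lists of related genes were chosen with earlier results of these data known.

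Barcodes needed 400 or more genes and no more than 10% of UMIs from mt- genes (4038 and 4934), and the 5% with the highest Scrublet scores were removed (156 and 217), since the automatic threshold marked only 0 and 1. Clustering (Scanpy 1.11.5, leidenalg 0.10.2, 2000 variable genes, 30 components, 20 neighbours, resolution 1) used marker genes and a random 50% of the others, never the genes tested. UMI counts were summed per class and library (104868 to 1745149 UMIs) and tested with edgeR 4.0.16 (TMM factors, quasi-likelihood F test, library as a block, 12 residual degrees of freedom, Benjamini-Hochberg adjustment) in R 4.3.3. The rule for named genes covers all 10 in every class, where the plot of levels shows each value and the text names part of them, and of each list the 3 called genes with the smallest adjusted p in cardiomyocyte-like over SHF/foregut mesenchyme-like cells. Similar genes are those with the highest Pearson correlation of log2 levels among 2925 candidates. Candidates were tested genes outside all lists and outside the clustering (at least 50 CPM in 1 class), without ribosomal, haemoglobin, mt-, Gm and Rik genes. The libraries are biological replicates processed on different days per the labels, and classes of 1 library deviated together (r 0.286 to 0.787), so library was kept as a block. They differed beyond sampling noise (chi-square per degree of freedom 22.96). On simulated data 52.7% of 2-fold and 86.7% of 4-fold changes were recovered for cardiomyocyte-like over SHF/foregut mesenchyme-like cells (5217 genes). Alternatives were stricter cells, doublets kept, other clusterings, thinning, other scaling and filters, DESeq2 1.42.0, and each library alone. Intervals cover counting error only.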

Additional observations from a re-analysis of the deposited data

How the results depend on the processing

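With the Hcn4-led cluster alone as the cardiomyocyte-like class, a contrast chosen after seeing the data, 3 genes were higher than in SHF/foregut mesenchyme-like cells and 1 lower, against 6 and 0 for the whole class. Over the 13 classes the 37 higher and 24 lower calls became 18 and 15 after thinning to 1000 UMIs and 18 and 13 with no replicate block, that is without the library term. Reversed values were Hk2 in endothelial or endocardial-like cells (0.039) and Ldha in epicardial or mesothelial-like cells (-0.20), both after thinning, and Pfkl in surface ectoderm-like cells (0.091) with all genes outside the lists used to cluster. Cells were clustered and named anew in these settings, so the classes did not hold the same cells. Epicardial or mesothelial-like cells numbered 221 and 261 after thinning, against 76 and 73 in the main run. Endothelial or endocardial-like cells numbered 93 and 154, against 167 and 207. Surface ectoderm-like cells numbered 188 and 491 with all genes outside the lists, against 92 and 177. Share differences of cardiomyocyte-like minus SHF/foregut mesenchyme-like cells moved after thinning to 4.01 points for Slc2a1, 34.5 for Pfkp, -6.33 for Pfkm and -28.1 for Pfkl. With another random draw of the clustering genes they were 52.0 for Hk1, 42.7 for Pfkp and -40.4 for Pfkl, and there the Hcn4-led cluster was unnamed. With all genes outside the lists they were 31.4 for Pfkp and -29.7 for Pfkl, and with at least 800 genes per cell -28.0 for Pfkl. In single libraries they ranged from 39.2 to 46.8 for Hk1, 1.51 to 2.32 for Ldha, -27.5 to -25.8 for Pfkl, -4.85 to 0.117 for Pfkm, 27.4 to 30.6 for Pfkp and -5.75 to 0.583 for Slc2a1. The cause of these moves was not tested. DESeq2 size factors moved the median of all genes by over 0.1 in neuron-like (-0.34, against -0.22), erythroid-like (-0.03, against -0.14) and hepatoblast-like cells (-0.18, against -0.06). Pfkp, Hk1 and Pfkm rest on 328, 419 and 414 UMIs in all classes, which limits what can be seen of them in small classes.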
